A study of Mus musculus with 95 samples.

Results

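Wild-type liver was compared with wild-type cerebral cortex in the 16 mice that gave both tissues. These 32 libraries, 16 of liver and 16 of cortex, were chosen by their labels alone (wild-type genotype, tissue and animal code) from the 95 libraries of the series. The series was made to compare the z_Q175 Huntington's disease knock-in allele with its neo cassette kept (strain CHDI-81003003, here neo-in) or removed (strain CHDI-81003019, here neo-out). In each line 4 female and 4 male wild-type mice entered, all 6 months old, on a C57BL6/J background, and caged together with carriers of the allele of their line. Their genotype is Wild Type, and no treatment is given in the labels. Each animal gave the cortex of its left hemisphere and the left lobe of its liver, which ties the tissues together animal by animal. Het mice, the carriers of 1 knock-in allele in the same lines, sexes and age, enter in a single later comparison, and the striatum of the same 16 wild-type mice in another.

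The liver is built mostly of hepatocytes, which make the proteins of blood plasma, store and release glucose, turn amino nitrogen into urea, oxidise fatty acids, make bile acids from cholesterol and break down foreign compounds. Kupffer cells, sinusoidal endothelium, stellate cells and bile duct cells make up the remainder. The cerebral cortex holds glutamate-releasing projection neurons, GABA-releasing interneurons, astrocytes, oligodendrocytes, microglia and blood vessels, and its neurons depend on glucose, ion channels and vesicle release. Since a few secretory mRNAs take much of a liver library, the scale between the tissues is a choice of its own.

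Library depth was 31019993 to 43990345 counts in cortex and 33846182 to 68358961 in liver. Levels below are CPM, the count as a share of the library total scaled by TMM factors, and levels between genes are compared in FPKM, which is per length of transcript. TMM sets the bulk of genes nearly level between tissues: its factors were 0.662 to 0.798 in liver and 1.37 to 1.43 in cortex, and the median log2 difference of all 16866 genes tested was -0.156. With library totals alone the median was -1.12, so differences under about 1 on the log2 scale take their direction from the scale. Log2 differences are liver less cortex over 16 animals, with the standard error of the edgeR quasi-likelihood fit and a Benjamini-Hochberg adjusted p over all genes tested. A gene is called below an adjusted p of 0.05. In bulk tissue, fewer cells of a type and less RNA per cell cannot be told apart.

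The labels of tissue were borne out by defining genes. Albumin was at 80640 CPM or more in every liver and at 1.46 or less in every cortex, and the synaptic gene Snap25 was at 0.179 CPM or less in every liver. The cortex library of neo-out female 1 stood apart in 1 respect: it held 1126 CPM of the choroid plexus gene Ttr against 1.77 to 23.7 in the other 15 cortex libraries. The same library was the highest of 16 for 9 further choroid plexus genes, among them Kl at 44.9 CPM (others 1.18 to 3.35) and Folr1 at 7.93 (others 0.0658 to 0.563). Without this animal 2646 genes were called at 4-fold higher in liver and 4544 at 4-fold higher in cortex, against 2634 and 4539 with it. The liver library of neo-in male 3 also stood apart, in acute-phase genes: A2m, alpha-2-macroglobulin, was at 614 CPM there and at 1.10 or less in the other 15 livers. Without that animal the 4-fold counts were 2652 and 4556. Striatal neuron genes were low but present in cortex, with Drd1, the D1 dopamine receptor, at 7.56 to 22.1 CPM (median 9.82) there and no counts in liver.

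Most genes were called. Of 16866 genes tested 15751 were called (93.4%), 7303 higher in liver (43.3%) and 8448 higher in cortex (50.1%), with a median size of 1.73 on the log2 scale among called genes, and 1115 were not called. With library totals only, 26.5% of the calls were higher in liver in place of 46.4%, and 4236 genes were called in that direction. At a fold of 4 or more, 2634 genes were called at 4-fold higher in liver (15.6%) and 4539 at 4-fold higher in cortex (26.9%). The 16 livers did not overlap the 16 cortices at all for 11789 genes (69.9%).

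The liver transcriptome was concentrated in far fewer genes. In liver 84 to 184 genes (mean 136 ± 26.5, SD, n = 16) held the upper part of the counts up to the midpoint, against 837 to 894 in cortex (864 ± 17.04). The 10 highest genes took 18.8% ± 1.54 of liver counts and 10.2% ± 0.697 of cortex counts. The single highest gene was Alb in liver, with 7.10% ± 1.09, and the mitochondrial mt-Co1 in cortex, with 3.04% ± 0.201. Genes at 1 FPKM or more numbered 10700 ± 237 in liver and 13304 ± 94.5 in cortex. FPKM rests on library totals, on which the median log2 difference of all genes was -1.12, so a fixed cut is stricter for liver. No other scale was tried for this count. Each of these measures differed in the same direction in all 16 animals (exact sign-flip permutation test, two-sided, p = 3.052e-05, the smallest it can give, adjusted p = 4.578e-05 over 6 measures). All genes of the mitochondrial genome, the ribosomal RNA mt-Rnr1 included, took a similar share, 9.87% ± 0.888 in liver and 10.7% ± 0.764 in cortex. Their share was lower in liver in 12 of 16 animals (exact sign-flip permutation test, p = 0.007416, adjusted p = 0.007416). In the 8 neo-out animals alone the difference was -0.537 percentage points, with p = 0.25 by the same exact test.

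**Figure D1:**
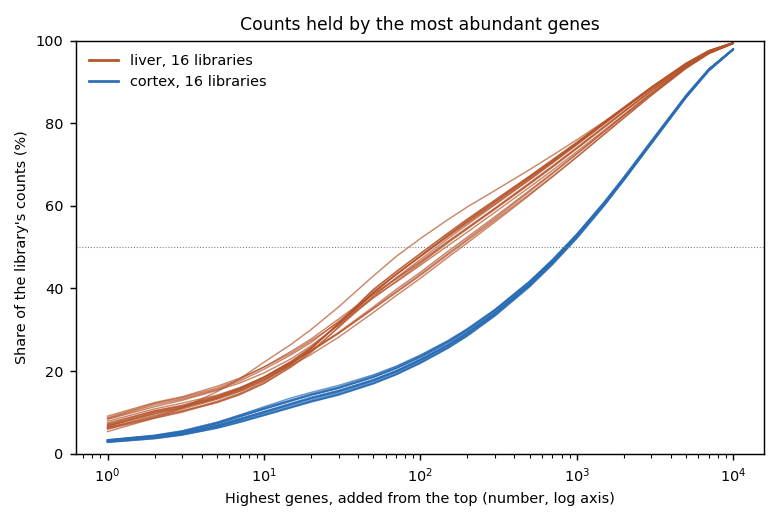
Cumulative share of a library's counts (percent, vertical axis) held by its highest genes, added from the top (number of genes, log axis), 1 line per library. The 16 liver lines reach the 50% mark at 84 to 184 genes and the 16 cortex lines at 837 to 894, with no overlap.

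Per length, the most abundant liver transcript was Alb at 34760 ± 5347 FPKM (SD, n = 16), followed by mt-Co1 at 19877 ± 2094. Apoe, which carries lipid in plasma and brain, reached 9195 ± 1219 FPKM in liver and 628 ± 97.0 in cortex, and Apoa2, a protein of high-density lipoprotein, 7239 ± 1404 FPKM in liver. In cortex 9 of the 10 highest places were taken by protein-coding mitochondrial transcripts and the remaining place by the mitochondrial ribosomal RNA mt-Rnr1, at 3173 ± 237 FPKM against 522 ± 95.6 in liver. Mitochondrial protein-coding transcripts stood at close FPKM in both tissues, with mt-Co1 at 19686 ± 1303 in cortex.

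In 48 lists of genes by pathway or cell type, 784 of 823 members could be tested. Every tested member of the plasma, coagulation, urea, bile acid, drug and glucose lists was at least 4-fold higher in liver. Every tested member of the synaptic vesicle, glutamate receptor, GABA receptor and channel lists was at least 4-fold higher in cortex. Over all genes these shares were 15.6% and 26.9%. Counts of members called at any size, here and below, stand beside 43.3% of all genes called higher in liver and 50.1% higher in cortex. The lists were chosen with earlier results of these data known, so full counts here and below in part restate the choice of members. Lists for machinery that all cells share sat near a difference of 1, and lists for macrophages, endothelium, nuclear receptors and splicing regulators spread to both sides.

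**Figure D2:**
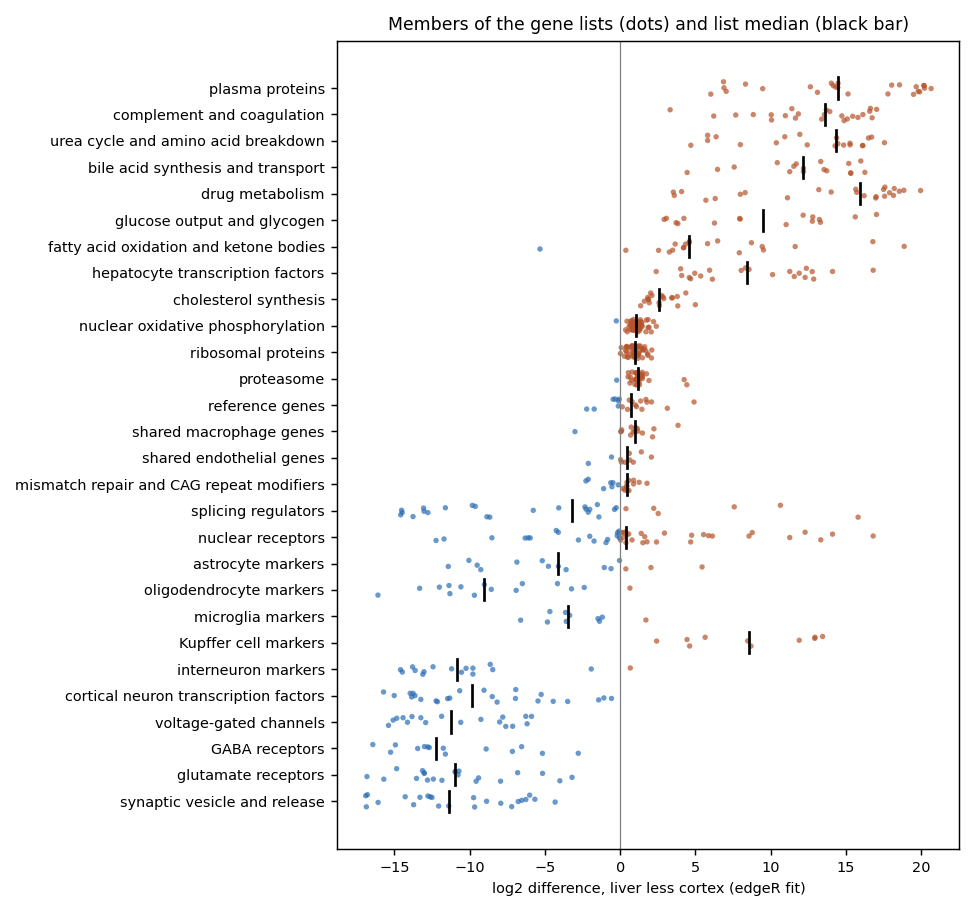
Log2 difference, liver less cortex (horizontal axis, edgeR fit), of each tested member of 28 gene lists, with the list's median as a black bar. Medians run from 15.95 for drug metabolism to -12.22 for GABA receptors, while oxidative phosphorylation, ribosomal proteins and the proteasome lie between 0.99 and 1.17 and stay above 0, at 0.0290 to 0.205, when scaled by library totals.

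All 25 members of the plasma protein list were 4-fold higher in liver, with a median log2 difference of 14.47 against -0.156 for all genes, and no member overlapped between tissues. Alb, the main carrier protein of plasma, ranged over 80640 to 119396 CPM (median 93676) in liver and 0 to 1.46 (median 0.0393) in cortex. Its 16 livers added up to 48033535 counts and its 16 cortices to 125, and the log2 difference was 20.21 ± 0.40 (SE, adjusted p = 4.08e-19). Fibrinogen, the clot precursor, showed the same split in all 3 chains. Fga, its alpha chain, ranged over 4574 to 30081 CPM (median 8207) in liver and 0 to 0.0987 (median 0) in cortex, with 6 counts in all 16 cortices together, and Fgb and Fgg had 4 each. Apoa1, the main protein of high-density lipoprotein, ranged over 3443 to 8334 CPM (median 6656) in liver and 0.0598 to 0.282 (median 0.171) in cortex, a log2 difference of 15.13 ± 0.16 (SE, adjusted p = 7.97e-23). Apob, the scaffold of very-low-density lipoprotein, reached 5479 to 9589 CPM (median 7059) in liver and 0.0968 CPM at most in cortex.

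Several plasma protein genes also had transcripts in cortex, at far lower levels. Trf, the iron carrier transferrin, which oligodendrocytes are known to make, ranged over 16363 to 35831 CPM (median 19473) in liver and 148 to 215 (median 170.3) in cortex, a log2 difference of 6.86 ± 0.10 (SE, adjusted p = 6.97e-21). Vtn, the adhesion protein vitronectin, which brain pericytes are known to express, ranged over 2322 to 4178 CPM (median 2880) in liver and 35.4 to 53.4 (median 45.1) in cortex and had the smallest difference of the list, 6.02 ± 0.075 (SE, adjusted p = 5.65e-22). Cp, the copper-binding ferroxidase ceruloplasmin, and Rbp4, the plasma retinol carrier, differed by 7.04 ± 0.10 and 8.32 ± 0.082. Ttr, the thyroxine and retinol-binding transthyretin, differed by 9.46 ± 0.54 (SE, adjusted p = 4.82e-12) with the cortex library of neo-out female 1 included. Its cortex median was 7.32 CPM against 5508 in liver.

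All 24 members of the complement and coagulation list were 4-fold higher in liver, with a median of 13.63. C3, the component on which the complement pathways meet, ranged over 10439 to 27362 CPM (median 14589) in liver and 0 to 0.516 (median 0.273) in cortex, a log2 difference of 15.79 ± 0.22 (SE, adjusted p = 1.72e-21). F2, which encodes prothrombin, reached 1829 to 2235 CPM (median 2092) in liver and 0.0658 CPM at most in cortex. F13b, the carrier subunit of the clot-linking factor XIII, had no count in any cortex library. With 3 counts allowed over the 16 cortices, it was at least 80842-fold higher in liver. Pros1, the anticoagulant protein S, was the nearest to common ground, at 68.4 to 183 CPM (median 98.1) in liver and 8.01 to 11.4 (median 9.69) in cortex, a log2 difference of 3.32 ± 0.066 (SE, adjusted p = 4.04e-19). The terminal components C6 and C8a varied widely between livers, from 16.5 to 525.5 CPM and from 209 to 2068, without reaching cortex levels.

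The urea cycle and amino acid breakdown list was likewise higher in liver in 20 of 20 members, with a median of 14.32. Cps1, which fixes ammonia in the first step of the cycle, ranged over 4061 to 9677 CPM (median 7137) in liver and 0.0425 to 0.419 (median 0.251) in cortex, a log2 difference of 14.84 ± 0.15 (SE, adjusted p = 4.18e-23). Otc, which makes citrulline in the next step, reached 387 to 761 CPM (median 689.7) in liver and 0.0850 CPM at most in cortex. Ass1 and Asl, which also serve arginine supply for nitric oxide in other cells, were the cycle enzymes that cortex kept, with 13.6 to 23.2 CPM (median 16.6) and 5.37 to 7.40 CPM (median 6.64) in cortex and differences of 7.98 ± 0.11 and 6.37 ± 0.091. Arg1, the final enzyme, again stopped at 0.0797 CPM in cortex. Tat, Hpd, Hgd and Fah degrade tyrosine, and of these only Fah kept a cortex level above 1 CPM, at 11.9 to 13.8 CPM (median 12.7). Gls2, the liver type of glutaminase, had the smallest difference of the list, 4.69 ± 0.076 (SE, adjusted p = 1.96e-20).

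In the bile acid list 17 of 17 members were 4-fold higher in liver, with a median of 12.17. Cyp7a1, the rate-limiting enzyme of bile acid synthesis, ranged over 40.4 to 639 CPM (median 252) in liver and 0 to 0.0420 (median 0) in cortex, with 3 counts in the 16 cortices together. Abcb11, the bile salt export pump, ranged over 584 to 1400 CPM (median 1104) in liver and 0 to 0.0682 (median 0.0101) in cortex, a log2 difference of 16.25 ± 0.15 (SE, adjusted p = 6.15e-21). Nr0b2, a repressor that bile acids induce, had no cortex count and was at least 8605-fold higher in liver. Cyp7b1, an oxysterol hydroxylase, had the smallest difference of the list, 4.45 ± 0.10 (SE, adjusted p = 1.44e-18), and depended on sex, as given further on.

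Drug-metabolising enzymes had the highest list median, 15.95, with 24 of 24 members 4-fold higher in liver. Cyp3a11, a broad-specificity cytochrome P450, ranged over 3853 to 12592 CPM (median 6218) in liver and 0 to 0.0493 (median 0) in cortex, with 5 counts in all 16 cortices together. Cyp2e1, which oxidises ethanol and small solvents, ranged over 4840 to 11531 CPM (median 8639) in liver and 0.0210 to 0.542 (median 0.176) in cortex, a log2 difference of 15.64 ± 0.16 (SE, adjusted p = 7.26e-23). Cyp3a25, Cyp4a14 and Ugt2b36 had no count in any cortex library and were at least 253368-fold, 337699-fold and 203986-fold higher in liver. Reads shared between near-identical members of these families cannot be assigned with certainty by expected counts. Por, the electron donor of all microsomal P450 enzymes, was present on both sides at 234 to 619 CPM (median 356) in liver and 26.5 to 39.6 (median 32.5) in cortex, a log2 difference of 3.53 ± 0.074 (SE, adjusted p = 7.64e-19), and the glutathione transferases Gstp1 and Gstm1 differed by 3.59 ± 0.076 and 4.08 ± 0.074.

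Transcription factors that direct hepatocyte genes were higher in liver in 22 of 22 members, each at 4-fold or more, with a median of 8.44. Hnf4a, a nuclear receptor central to hepatocyte identity, ranged over 649 to 1153 CPM (median 797) in liver and 0 to 0.0425 (median 0) in cortex, with 4 counts in the 16 cortices together. Nr1i3, the xenobiotic receptor CAR, ranged over 195 to 860.3 CPM (median 389) in liver and 0.746 to 1.43 (median 0.963) in cortex, a log2 difference of 8.56 ± 0.14 (SE, adjusted p = 2.51e-20). Foxa2, a pioneer factor of endoderm, reached 15.3 to 34.9 CPM (median 22.9) in liver, had no cortex count and was at least 6286-fold higher. Prox1, known in hepatocytes and in dentate and cortical precursors, differed by 4.01 ± 0.084. Xbp1, which drives the secretory pathway in many cells, had the smallest difference, 2.39 ± 0.067 (SE, adjusted p = 7.04e-17), over 177 to 496 CPM (median 237) in liver and 37.0 to 58.5 (median 49.1) in cortex.

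Hnf4a binds a short motif near the start of many liver genes, so the promoters of liver genes were read for it. The sequences are those of RefSeq, build GRCm38.p6, from 250 bases before to 50 after the gene start, and 12422 of the 16866 tested genes (73.7%) had one. They are shown 5′ to 3′ on the gene's own strand, for a choice of the highest liver genes that carry the letters upstream of the start, and the capitals mark the match. For HNF4 the letters CAAAGTCCA were searched on either strand, and the highest liver genes with a match upstream were cytochrome P450 genes. Cyp3a11 is given with all 250 bases before its start.
Cyp3a11, chr5:145879855-145880104, minus strand: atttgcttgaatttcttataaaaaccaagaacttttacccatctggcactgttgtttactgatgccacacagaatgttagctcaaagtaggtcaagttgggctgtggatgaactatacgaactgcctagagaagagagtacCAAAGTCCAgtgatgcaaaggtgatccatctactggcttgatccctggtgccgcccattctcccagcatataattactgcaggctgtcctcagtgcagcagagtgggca
Cyp2c70, chr19:40187327-40187365, minus strand: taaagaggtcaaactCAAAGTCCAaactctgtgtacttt
Cyp2c69, chr19:39886821-39886859, minus strand: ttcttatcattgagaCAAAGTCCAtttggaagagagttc
These letters stood in 31 of 1952 promoters of genes 4-fold higher in liver (1.59%), in 15 of 3198 of those higher in cortex (0.469%) and in 77 of all (0.620%). Cyp2c70, which hydroxylates bile acids in mice, ranged over 497 to 1217 CPM (median 639) in liver. Of the genes called at 16-fold higher in liver (1335 genes, 7.92%), 965 had a promoter, and 28 of these promoters held the letters (2.90%). A match in these windows is a description of letters and not a binding site.

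All 16 members of the glucose output and glycogen list were 4-fold higher in liver, with a median of 9.49. Pck1, which starts gluconeogenesis from oxaloacetate, ranged over 1618 to 4986 CPM (median 3854) in liver and 0 to 0.0823 (median 0.0201) in cortex, a log2 difference of 17.02 ± 0.19 (SE, adjusted p = 1.65e-22). G6pc, which frees glucose for export, ranged over 64.8 to 969 CPM (median 576) in liver and 0 to 0.0466 (median 0) in cortex, with 7 counts in all cortices. Slc37a4, Ugp2 and Pgm1, which feed or precede those steps in many tissues, had cortex levels of 10.2 to 12.2 CPM (median 11.3), 51.3 to 64.5 CPM (median 59.0) and 31.6 to 37.7 CPM (median 33.8) and differences of 3.83 ± 0.067, 2.92 ± 0.070 and 3.07 ± 0.038.

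Fatty acid oxidation and ketone body genes were higher in liver in 19 of 20 members, 18 at 4-fold, with a median of 4.59. Oxct1, which activates acetoacetate so that it can be burned, was the sole member higher in cortex. It ranged over 2.82 to 6.86 CPM (median 5.15) in liver and 187 to 222 (median 202) in cortex, a log2 difference of -5.33 ± 0.074 (SE, adjusted p = 2.24e-21). Fabp1, the liver fatty acid carrier, ranged over 969 to 4166 CPM (median 3056) in liver and 0 to 0.0438 (median 0) in cortex, with 4 counts in all cortices. Pdk4, a fasting-induced brake on glucose oxidation, overlapped between tissues, and its difference of 0.37 ± 0.12 changed sign when scaled by library totals, in males alone (-0.10) and in the neo-in line alone (-0.40).

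The enzymes of cholesterol synthesis were expressed in both tissues, with 19 of 19 higher in liver, 13 of them at 4-fold, with a median of 2.61. Ebp, a sterol isomerase, had the largest difference, 4.99 ± 0.062 (SE, adjusted p = 5.40e-22), over 227 to 362 CPM (median 298) in liver and 7.22 to 11.4 (median 9.18) in cortex. Cholesterol transport and turnover divided between tissues, 8 genes higher in liver and 4 in cortex. Scarb1 and Lcat, which take up or esterify lipoprotein cholesterol, differed by 3.69 ± 0.042 and 5.40 ± 0.054. Cyp46a1, which makes 24-hydroxycholesterol for export from the brain, ranged over 0.625 to 7.63 CPM (median 2.49) in liver and 95.1 to 129 (median 111) in cortex, a log2 difference of -5.47 ± 0.11 (SE, adjusted p = 7.40e-19). Abcg1 and Soat1 were also higher in cortex, with differences of -2.18 ± 0.077 and -1.75 ± 0.076. Srebf2, the master regulator of the synthesis genes, overlapped between tissues at 79.2 to 139.9 CPM (median 104) in liver and a mean of 148 ± 15.7 CPM (SD, n = 16) in cortex, with -0.53 ± 0.049 (SE, adjusted p = 8.03e-09).

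On the cortex side stood the release machinery of the synapse. All 23 synaptic vesicle genes were 4-fold higher in cortex, with a median of -11.39, and none overlapped. Snap25, a SNARE protein of the presynaptic membrane, ranged over 0 to 0.179 CPM (median 0) in liver and 1681 to 2530 (median 2296) in cortex, with 12 counts in all 16 livers against 1805485 in the cortices. Slc17a7, the vesicular glutamate transporter of cortical projection neurons, ranged over 636 to 847 CPM (median 792) in cortex and had 3 counts in all livers. Gad1 and Slc32a1, which make and load GABA, reached 256 to 305 CPM (median 282) and 27.7 to 52.6 CPM (median 42.5) in cortex. Syn1, which tethers vesicles, ranged over 0.118 to 0.820 CPM (median 0.428) in liver and 291 to 371 (median 347) in cortex, a log2 difference of -9.74 ± 0.17 (SE, adjusted p = 4.40e-20). Vamp2 and Syt1, the vesicle SNARE and its calcium sensor, had the smallest differences, -4.32 ± 0.047 (SE, adjusted p = 1.01e-22) and -5.67 ± 0.12 (SE, adjusted p = 1.23e-18), with liver levels of 30.4 to 45.5 CPM (median 37.1) and 8.87 to 36.1 CPM (median 25.3).

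Glutamate receptors were higher in cortex in 21 of 21 members and GABA receptors in 14 of 14, all at 4-fold, with medians of -10.97 and -12.22, the latter -11.71 with genes at no liver count set at their bound. Gria2, the AMPA receptor subunit that sets calcium permeability, ranged over 0 to 0.0299 CPM (median 0) in liver and 439.9 to 553 (median 502) in cortex, with 1 count in all livers. Grin2b, an NMDA receptor subunit, ranged over 0 to 0.389 CPM (median 0.219) in liver and 354 to 453 (median 386) in cortex, a log2 difference of -10.97 ± 0.14 (SE, adjusted p = 9.06e-22). A few members had a level in liver. Gabbr2, a GABA-B receptor subunit, ranged over 28.4 to 55.9 CPM (median 40.8) in liver and 232 to 304 (median 274) in cortex, a log2 difference of -2.79 ± 0.064 (SE, adjusted p = 3.36e-18), while its partner Gabbr1 had a liver median of 5.25 CPM. Grik5, a kainate receptor subunit, ranged over 8.05 to 15.3 CPM (median 12.3) in liver and 84.4 to 129 (median 112) in cortex, with -3.20 ± 0.071 (SE, adjusted p = 1.88e-18).

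Voltage-gated channels followed, 18 of 18 at 4-fold higher in cortex with a median of -11.23. Scn1a and Scn2a, sodium channels of interneurons and of excitatory axons, reached 137 to 207 CPM (median 193) and 234 to 302 CPM (median 269.6) in cortex, with 1 and 27 counts in all livers.

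The transcription factors of cortical neurons were higher in cortex in 24 of 24 members, 21 of them at 4-fold, with a median of -9.85 that became -9.68 when genes without liver counts were set at their bound. Tbr1, of deep-layer projection neurons, ranged over 81.7 to 118 CPM (median 103) in cortex, had no liver count, and was at least 16598-fold higher in cortex. Neurod6 and Fezf2, of projection neurons, also had no liver count, with bounds of 7454-fold and 2285-fold. Mef2c, an activity-regulated factor, ranged over 2.84 to 6.17 CPM (median 4.31) in liver and 425 to 618 (median 542) in cortex, a log2 difference of -6.96 ± 0.11 (SE, adjusted p = 8.16e-21). Cux1, Tle4 and Foxp2, which act in many organs, had the smallest differences, -1.43 ± 0.037, -1.09 ± 0.048 and -0.58 ± 0.067, and Foxp2 overlapped between tissues. Cux2, of upper-layer neurons, also overlapped, and its levels in female and male liver are given further on.

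Interneuron markers were higher in cortex in 15 of 16 members, 14 at 4-fold, with a median of -10.87, or -10.39 at those bounds. Sst, the somatostatin peptide, ranged over 53.8 to 79.7 CPM (median 73.2) in cortex, had no liver count and was at least 11426-fold higher. Pvalb, the calcium-binding protein of fast-spiking cells, was at least 7119-fold higher, at 31.8 to 54.0 CPM (median 44.1). Reln, the secreted protein of cortical Cajal-Retzius cells and interneurons, was higher in liver, at 37.3 to 135 CPM (median 99.0) in liver and 45.1 to 68.5 (median 50.5) in cortex. It is also made by hepatic stellate cells, and its difference of 0.67 ± 0.060 (SE, adjusted p = 4.30e-09) overlapped and changed sign when scaled by library totals.

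REST is a repressor that holds neuronal genes silent outside the nervous system, and its element is read here by its left part, TTCAGCACC, on either strand. Rest itself was higher in liver, over 24.8 to 37.8 CPM (median 29.7) in liver and 4.03 to 5.96 (median 4.37) in cortex, a log2 difference of 2.69 ± 0.055 (SE, adjusted p = 5.49e-19). Of the 10 members of the complex list, Rest included, 4 were higher in liver and 6 in cortex. Rcor2, a corepressor of neural progenitors, ranged over 0 to 0.244 CPM (median 0.0839) in liver and 6.03 to 8.59 (median 7.31) in cortex, a difference of -5.92 ± 0.21 (SE, adjusted p = 3.77e-15). The promoters below are 5 of the 6 highest cortex genes with the left part upstream of the start, in capitals.
Arf3, chr15:98763283-98763321, minus strand: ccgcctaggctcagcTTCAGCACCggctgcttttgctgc
Syn1, chrX:20921127-20921165, minus strand: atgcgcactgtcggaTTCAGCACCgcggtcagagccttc
Nsg2, chr11:32000484-32000522, plus strand: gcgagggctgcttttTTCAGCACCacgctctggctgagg
Cdc42bpa, chr1:179960952-179960990, plus strand: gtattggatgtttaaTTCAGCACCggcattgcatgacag
Celsr3, chr9:108825903-108825941, plus strand: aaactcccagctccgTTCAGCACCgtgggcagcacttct
The letters stood in 33 of 3198 promoters of genes 4-fold higher in cortex (1.03%), in 1 of 1952 of those higher in liver (0.0512%), the interleukin receptor gene Il6ra, and in 64 of all 12422 (0.515%). Among genes 16-fold higher in liver the share was 0 of 965 promoters. Of those 16-fold higher in cortex (2945 genes, 17.5%), 2059 had a promoter, and 30 of these promoters held the letters (1.46%). The short right part, GGACAG, stood in 29.0% of liver, 29.1% of cortex and 27.0% of all promoters. Syn1 is described above. Nsg2, a vesicle protein of neuronal endosomes, ranged over 0 to 0.209 CPM (median 0.0415) in liver and 304 to 383 (median 325) in cortex, a log2 difference of -12.54 ± 0.13 (SE, adjusted p = 8.09e-23). Arf3, a trafficking GTPase used by most cells, differed by -3.23 ± 0.041.

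The cyclic AMP response element TGACGTCA, read by CREB, was searched on both strands too. It reads the same on either strand. The matches below are those of 2 of the highest cortex genes with the element.
Meg3, chr12:109540924-109540961, plus strand: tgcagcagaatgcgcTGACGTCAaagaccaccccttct
Kif5c, chr2:49619245-49619282, plus strand: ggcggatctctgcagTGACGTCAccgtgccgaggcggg
It stood in 90 of 3198 promoters of genes 4-fold higher in cortex (2.81%), in 30 of 1952 higher in liver (1.54%) and in 411 of all 12422 (3.31%). Its share was thus lowest in the liver group, and in the cortex group it lay below that of all genes. Meg3, an imprinted noncoding RNA, ranged over 0.586 to 6.08 CPM (median 3.53) in liver and 4172 to 5085 (median 4569) in cortex, a log2 difference of -10.57 ± 0.23 (SE, adjusted p = 1.11e-18). Kif5c, a kinesin heavy chain of neurons, ranged over 0.0379 to 0.546 CPM (median 0.247) in liver and 824 to 982 (median 937) in cortex, with -11.89 ± 0.14 (SE, adjusted p = 1.85e-22).

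Markers of glia followed. Astrocyte markers were higher in cortex in 11 of 15 members and higher in liver in 3, with a median of -4.11. Slc1a3, a glutamate transporter of astrocytes, ranged over 0.177 to 0.839 CPM (median 0.351) in liver and 364 to 519.7 (median 410) in cortex, a log2 difference of -10.05 ± 0.10 (SE, adjusted p = 2.90e-23). Slc1a2, the main glutamate transporter of the brain, kept a liver level, over 137 to 332 CPM (median 238) in liver and 2628 to 3277 (median 2892) in cortex, a difference of -3.59 ± 0.078 (SE, adjusted p = 1.39e-18). Aldh1l1, a folate enzyme often used to mark astrocytes, was higher in liver, over 1263 to 2754 CPM (median 1858) in liver and 38.6 to 50.1 (median 44.0) in cortex, with 5.44 ± 0.093 (SE, adjusted p = 3.92e-20). Ndrg2 went the same way, by 2.04 ± 0.062, as did Slc4a4, whose 0.38 ± 0.067 overlapped and changed sign when scaled by library totals. Glul, glutamine synthetase, which detoxifies ammonia in pericentral hepatocytes and recycles glutamate in astrocytes, ranged over 1013 to 1582 CPM (median 1129) in liver and 1144 to 1335 (median 1247) in cortex and was not called (log2 difference -0.05 ± 0.062, SE, adjusted p = 0.486).

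Oligodendrocyte markers were higher in cortex in 14 of 15 members with a median of -9.02. Mobp, a protein of the myelin sheath, ranged over 452 to 654 CPM (median 503) in cortex and had 4 counts in all livers. Mog, on the myelin surface, had none in liver and was at least 5163-fold higher in cortex. Myrf, the transcription factor of myelination, was the exception, at 46.5 to 62.2 CPM (median 54.3) in liver and 25.8 to 39.4 (median 34.8) in cortex, and its difference of 0.65 ± 0.043 (SE, adjusted p = 4.15e-11) changed sign when scaled by library totals.

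Tissue macrophage markers divided by organ. Microglia markers were higher in cortex in 9 of 10 members and Kupffer cell markers higher in liver in 10 of 10. P2ry12, the ADP receptor of microglia, ranged over 1.01 to 3.05 CPM (median 1.89) in liver and 14 to 31.3 (median 24.5) in cortex, a log2 difference of -3.63 ± 0.13 (SE, adjusted p = 4.81e-15). Clec4f, the C-type lectin of Kupffer cells, ranged over 54.6 to 147 CPM (median 109) in liver and 0 to 0.0682 (median 0) in cortex, with 13.44 ± 0.15 (SE, adjusted p = 1.01e-19). Sall1, which defines microglia among macrophages, was higher in liver, at 40.6 to 111 CPM (median 62.4) in liver and 17.8 to 23.6 (median 18.7) in cortex, a difference of 1.71 ± 0.059 (SE, adjusted p = 2.06e-15). Of 15 genes that macrophages of both organs use, 11 were higher in liver, 1 in cortex, 3 were not called, and 10 overlapped between tissues. Over all genes 43.3% were called higher in liver and 50.1% in cortex, and 69.9% did not overlap. The list's median was 0.97 on the TMM scale, a size at which the direction depends on the scale. Csf1r, the receptor for macrophage survival, was not called at 30.4 to 103 CPM (median 75.5) in liver and 57.6 to 77.6 (median 63.3) in cortex. Lyz2, lysozyme, differed by 3.84 ± 0.087 (SE, adjusted p = 2.48e-18), and Itgam, the integrin CD11b, was the member higher in cortex, at 1.28 to 6.76 CPM (median 2.01) in liver and 15.2 to 21.4 (median 17.3) in cortex, with -3.00 ± 0.15 (SE, adjusted p = 4.02e-13).

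Endothelium divided in the same manner. Sinusoidal markers were higher in liver in 10 of 10 members, all at 4-fold, with Stab2, a scavenger receptor that clears hyaluronan, at 60.0 to 102 CPM (median 76.4) in liver and 0.406 to 0.946 (median 0.601) in cortex and a log2 difference of 6.95 ± 0.083 (SE, adjusted p = 2.92e-22). Brain endothelial markers were higher in cortex in 8 of 11. Slco1c1, a thyroxine transporter of the blood-brain barrier, ranged over 0.0299 to 0.280 CPM (median 0.110) in liver and 37.0 to 66.8 (median 51.3) in cortex, with -8.90 ± 0.12 (SE, adjusted p = 9.67e-22), and Slc2a1, the glucose transporter of the barrier, over 9.84 to 21.1 CPM (median 13.7) in liver and 51.7 to 109.6 (median 65.0) in cortex, with -2.30 ± 0.066 (SE, adjusted p = 1.02e-16). Mfsd2a, Slco1a4 and Ocln, listed as barrier genes, were higher in liver, by 2.21 ± 0.10, 1.799 ± 0.12 and 2.18 ± 0.069. The 10 genes shared by all endothelium had a median of 0.47, which changed sign when scaled by library totals, with 6 members higher in liver, 2 in cortex and 2 not called. Flt1, a VEGF receptor, was higher in cortex (-2.12 ± 0.060) and Eng, a co-receptor for TGF-beta, higher in liver (2.07 ± 0.056).

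Stellate cell markers were higher in liver in 11 of 11 members, 6 at 4-fold. Lrat, which esterifies retinol for storage, ranged over 13.5 to 51.9 CPM (median 23.1) in liver and 0.0196 to 0.252 (median 0.146) in cortex, a log2 difference of 7.40 ± 0.14 (SE, adjusted p = 1.91e-19), and Dcn, the matrix proteoglycan decorin, differed by 4.75 ± 0.15. Of 8 bile duct markers 6 were higher in liver, all at 4-fold, and 2 in cortex, and their summed level was 57.4 to 300.2 CPM in liver and 16.99 to 25.2 in cortex. Epcam ranged over 1.502 to 6.46 CPM (median 2.62) in liver and 0 to 0.0824 (median 0.0308) in cortex. Markers of cells that either dissection could carry along were also read. The 5 tested blood markers were all called higher in liver, with a median of 1.48 and a summed level of 161 to 689 CPM in liver and 58.6 to 299 in cortex. Among them Hbb-bs, a haemoglobin gene, overlapped at 70.6 to 261 CPM (median 112) in liver and 27.9 to 129 (median 42.3) in cortex. Of 8 pancreas markers only Pnlip could be tested, at 0.620 to 1.13 CPM (median 0.799) in cortex and no count in liver. Of 9 lymphocyte markers a pair could be tested: Cd79a, of B cells, was higher in liver, over 0.321 to 2.63 CPM (median 1.06) in liver and 0.101 to 0.300 (median 0.164) in cortex, by 2.41 ± 0.21 (SE, adjusted p = 2.35e-09), and Cd4 was not called. The part of blood and these cells in the other results was not tested.

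Several steps of metabolism were covered in liver and cortex mainly by different members of a gene pair. The 24 pairs read here were chosen with earlier results of these data known, and some, such as the lamins, are not of metabolism. The counts of pairs below thus in part restate that choice, and pairs chosen without such knowledge were not tested. In 19 of 24 pairs of related genes the liver form was called higher in liver and the other form higher in cortex. In 23 of 24 pairs the first form's share of the summed FPKM did not overlap between the 16 livers and 16 cortices, with lamin Lmna and Lmnb1 the exception (88.3% ± 3.16 in liver and 87.0% ± 2.07 in cortex). A share within a library does not depend on the scale between tissues.

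**Figure D3:**
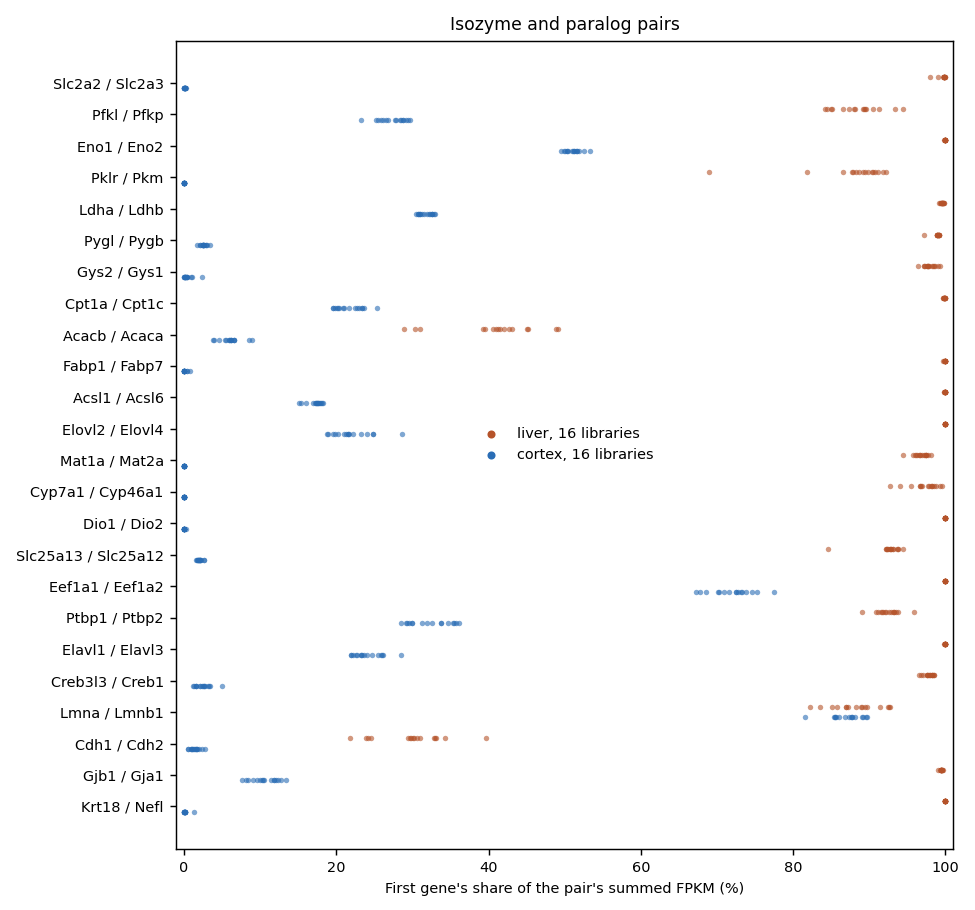
Share of the first-named gene in the summed FPKM of each of 24 pairs (percent, horizontal axis), 1 point per library, liver above and cortex below within a pair. Slc2a2 holds 97.95% or more of Slc2a2 and Slc2a3 in every liver and 0.198% or less in every cortex, while the Lmna points of both tissues overlap.

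Along glycolysis 1 member held nearly the whole pair at several steps. The glucose transporter Slc2a2 stood at 93.8 ± 33.1 FPKM in liver, and the neuronal transporter Slc2a3 at 36.8 ± 2.34 in cortex. Pyruvate kinase came from Pklr in liver (87.8% ± 5.60, lowest library 69.0%) and from Pkm in cortex, at 406 ± 20.5 FPKM. Lactate dehydrogenase was almost wholly Ldha in liver (99.6% ± 0.174), whereas Ldha held 31.7% ± 0.874 in cortex beside Ldhb.

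Not every pair was a full exchange. Eno1 stood at 191 ± 26.4 FPKM in liver and 318 ± 16.6 in cortex, although its TMM-scaled log2 difference was 0.22 ± 0.047, and cortex added neuronal Eno2 at 304 ± 15.7. Pfkl, named for liver, was itself higher in cortex than in liver (37.2 ± 3.34 and 8.39 ± 1.89 FPKM), with Pfkp above it in cortex at 98.8 ± 3.36. Acaca and Acacb, of fatty acid synthesis and of its control over oxidation, were both higher in liver on the CPM scale, by 1.19 ± 0.052 and 4.90 ± 0.092. In FPKM, Acaca stood closer, at 17.02 ± 2.098 in liver and 15.14 ± 0.8717 in cortex. Cdh2 likewise stood at 28.1 ± 2.42 FPKM in liver and 27.3 ± 1.67 in cortex, although it was called higher in liver, with a TMM-scaled log2 difference of 1.003. Cdh1 was added in liver at 12.1 ± 2.69 FPKM.

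Other pairs concerned control rather than fuel. Dio1, which clears and activates thyroid hormone in liver, ranged over 78.4 to 209 CPM (median 132) in liver and 0 to 0.0164 (median 0) in cortex, and Dio2, which activates it inside the brain, over 56.0 to 89.6 CPM (median 79.0) in cortex, with 1 count in all livers. Mat1a, the liver enzyme for S-adenosylmethionine, held 96.8% ± 0.924 of its pair in liver and 0.0128% ± 0.0164 in cortex. Eef1a2, the elongation factor of neurons and muscle, ranged over 431 to 582 CPM (median 493) in cortex with 5 counts in all livers, and the common Eef1a1 still held 72.0% ± 2.78 of the pair in cortex. Gjb1, the gap junction protein of hepatocytes, held 99.4% ± 0.147 in liver and 10.6% ± 1.74 in cortex, where astrocytic Gja1 led.

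Splicing regulators were mostly higher in cortex, 22 of 28 tested, with a median of -3.21. Rbfox1, a neuronal regulator of exon choice, ranged over 186 to 271 CPM (median 246) in cortex, with 5 counts in all livers. Elavl4, a stabiliser of neuronal mRNAs, had no liver count and was at least 11726-fold higher. Ptbp1 and Ptbp2, the exchange of which marks neuronal differentiation, lay on opposite sides, at 107 to 164 CPM (median 129) in liver and 19.8 to 24.9 (median 22.4) in cortex for Ptbp1 and 8.90 to 17.04 CPM (median 12.7) in liver and 55.6 to 75.9 (median 64.8) in cortex for Ptbp2, with differences of 2.52 ± 0.046 (SE, adjusted p = 9.75e-20) and -2.34 ± 0.044 (SE, adjusted p = 1.499e-19). Epithelial regulators formed the liver side. Esrp2 ranged over 95.7 to 137 CPM (median 117) in liver and 0.0191 to 0.189 (median 0.0614) in cortex, with 10.64 ± 0.11 (SE, adjusted p = 6.90e-23), and A1cf, the partner of the Apob mRNA editing enzyme, had no cortex count and was at least 47575-fold higher in liver. Celf1 and Elavl1, found in all cells, differed by -0.27 ± 0.031 and -0.38 ± 0.034.

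Genes of the machinery that both tissues share had list medians of about 1, and most of that size went with the scale. Nuclear genes of oxidative phosphorylation were higher in liver in 50 of 51 members with a median of 1.08, and ribosomal proteins in 51 of 53 with 0.99. The 13 mitochondrially encoded genes were all called higher, with a median of 0.89 that changed sign when scaled by library totals, and the proteasome list in 33 of 34 with 1.17. With library totals only, these medians were 0.117, 0.0290, -0.0739 and 0.205 in place of those values. The lower liver share of mitochondrial counts given above is that of a wider set of genes. That set holds the ribosomal RNA mt-Rnr1 (522 ± 95.6 FPKM in liver, 3173 ± 237 in cortex), which the list of 13 leaves out. Within the lists, some members moved well away. Sdhd and Uqcrq, of complexes II and III, differed by 2.40 ± 0.049 and 2.21 ± 0.10, and Cox8a, of complex IV, by -0.26 ± 0.076. Psmb8 and Psmb9, the immunoproteasome subunits for antigen processing, ranged over 25.6 to 48.3 CPM (median 34.9) in liver and 1.35 to 2.47 (median 1.88) in cortex and over 13.8 to 30.7 CPM (median 19.4) in liver and 0.638 to 1.38 (median 0.897) in cortex, with differences of 4.25 ± 0.076 (SE, adjusted p = 8.21e-20) and 4.42 ± 0.10 (SE, adjusted p = 1.18e-18). Psmc5 was the member called higher in cortex (-0.23 ± 0.031).

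Genes often used as references were mostly called, as most genes were. Of 20, 13 were called higher in liver, 5 in cortex and 2 were not called, beside 93.4% of all genes called. At 4-fold 3 were higher in liver and 1 in cortex, beside 15.6% and 26.9% of all genes. B2m, the light chain of class I antigen presentation, ranged over 1485 to 2095 CPM (median 1916) in liver and 57.1 to 69.6 (median 61.7) in cortex, a log2 difference of 4.90 ± 0.055 (SE, adjusted p = 1.58e-22). Ywhaz, a 14-3-3 adaptor, was higher in cortex (log2 -2.23 ± 0.047). Actb, cytoplasmic actin, was not called at 314 to 675 CPM (median 452) in liver and 417 to 515 (median 465) in cortex (log2 -0.06 ± 0.066, SE, adjusted p = 0.372), and Ppia, a prolyl isomerase, was not called either (-0.13 ± 0.16). Gapdh was called with a difference of 0.14 ± 0.038, which turned to -0.82 when scaled by library totals. Among genes at 50 CPM or more in both tissues, the nearest to 0 were Mfn2, of mitochondrial fusion (0.00 ± 0.041), Arpc3, of actin branching (0.01 ± 0.029), and Sf3b2, of the spliceosome (-0.01 ± 0.031), on the TMM scale.

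**Figure D4:**
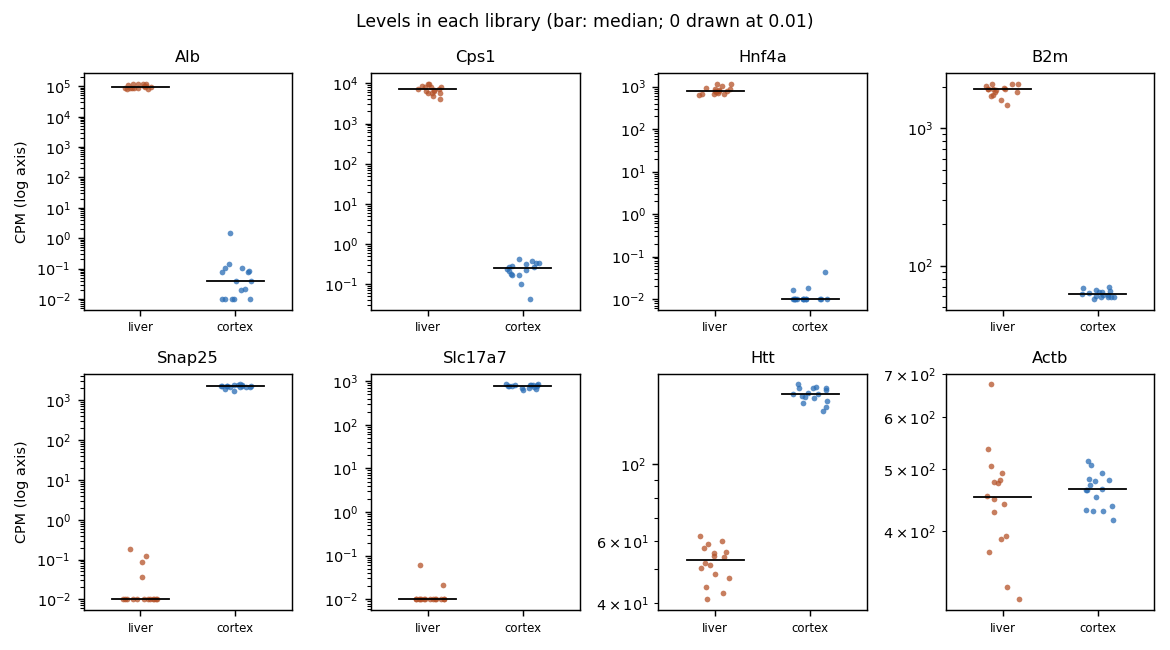
CPM in each library (log axis, a count of 0 drawn at 0.01) for 8 genes, liver left and cortex right in each panel, with the median as a bar. Alb, Cps1, Hnf4a and B2m are higher in every liver, Snap25, Slc17a7 and Htt in every cortex, and the Actb points overlap with medians of 452 and 465 CPM.

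Nuclear receptors read lipids, steroids and thyroid hormone, and members of the list stood on both sides. Of 44 tested, 25 were higher in liver, 14 in cortex and 5 not called, beside 93.4% of all genes called. In 28 of them the tissues did not overlap, beside 69.9% of all genes. The list's median of 0.37 changed sign when scaled by library totals. Rxra, the common partner of many of them, ranged over 445 to 726 CPM (median 570.4) in liver and 17.6 to 26.6 (median 21.2) in cortex, a log2 difference of 4.74 ± 0.049 (SE, adjusted p = 6.64e-23). Ppara, the fatty acid sensor, and Nr1h3, the oxysterol receptor, differed by 6.12 ± 0.077 and 5.86 ± 0.079, and Esr1, the oestrogen receptor, by 4.68 ± 0.12. On the cortex side Nr4a1, Nr4a2 and Nr4a3, immediate early receptors of active neurons, differed by -4.11 ± 0.17, -6.11 ± 0.13 and -6.31 ± 0.16. Nr2e1, of neural stem cells, had no liver count and was at least 1673-fold higher in cortex. The partner Rxrb was not called, at -0.05 ± 0.060.

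Thyroid hormone handling was divided too. The receptor Thra ranged over 10.9 to 23.5 CPM (median 19.6) in liver and 308 to 398 (median 360.3) in cortex, with -4.25 ± 0.061 (SE, adjusted p = 3.26e-21), while the liver-type receptor Thrb was not called, at 44.1 to 71.6 CPM (median 51.3) in liver and 41.8 to 54.1 (median 50.8) in cortex. Serpina7, the plasma thyroxine-binding globulin, had no cortex count and was at least 24855-fold higher in liver. Thrsp, a lipogenic target of the hormone, differed by 3.74 ± 0.21 (SE, adjusted p = 3.61e-12), and Crym, which binds the hormone in neurons, by -3.68 ± 0.10 (SE, adjusted p = 7.28e-17).

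Of 13 selenium handling genes 10 were higher in liver, 6 at 4-fold, and 3 in cortex. Selenop, the selenium carrier that liver secretes, ranged over 6731 to 9774 CPM (median 8237) in liver and 148 to 199 (median 164) in cortex, a log2 difference of 5.61 ± 0.066 (SE, adjusted p = 2.52e-22). Lrp8, the receptor that takes it up in brain, ranged over 0.0217 to 0.353 CPM (median 0.0996) in liver and 62.1 to 81.7 (median 74.1) in cortex, with -9.21 ± 0.14 (SE, adjusted p = 6.09e-21). Gpx1, a selenium-dependent peroxidase, and Sephs2, which makes the selenium donor, were higher in liver by 5.91 ± 0.087 and 5.64 ± 0.053. Selenow and Selenom, small selenoproteins abundant in brain, were higher in cortex (log2 -1.87 ± 0.054) and -4.04 ± 0.11.

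The growth factor axis had a similar shape. Igf1, the hormone that growth hormone induces in liver, ranged over 575 to 947 CPM (median 733) in liver and 6.61 to 9.17 (median 8.01) in cortex, with 6.51 ± 0.059 (SE, adjusted p = 1.83e-23). The growth hormone receptor Ghr differed by 6.20 ± 0.086, and Igfals, which keeps the hormone in circulation, reached 69.8 to 196 CPM (median 139) in liver with 21 counts in all cortices. The receptor Igf1r was higher in cortex, over 0.508 to 2.36 CPM (median 1.11) in liver and 18.7 to 26.4 (median 21.9) in cortex, with -4.17 ± 0.13 (SE, adjusted p = 3.91e-16), and the insulin receptor Insr higher in liver (2.12 ± 0.044). Igfbp5 and Igfbp6 were higher in cortex (log2 -2.99 ± 0.12) and -5.49 ± 0.23, and Igf2 by -5.74 ± 0.19.

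Htt, the gene whose repeat is expanded in the knock-in lines, was here the normal mouse gene on both chromosomes. It ranged over 40.9 to 62.1 CPM (median 53.0) in liver and 142 to 169 (median 159) in cortex, with no overlap. The log2 difference was -1.60 ± 0.170 (SD, n = 16), higher in cortex in 16 of 16 animals (exact sign-flip permutation test, two-sided, p = 3.052e-05, the smallest possible), and -2.58 on the log2(FPKM + 0.1) scale. Of 19 genes of mismatch repair and known modifiers of CAG repeat length, 11 were higher in liver, 7 in cortex and 1 was not called. Over all genes 43.3% were called higher in liver and 50.1% higher in cortex. The tissues did not overlap for 8 of the 19, beside 69.9% of all genes. The list's median of 0.43 changed sign when scaled by library totals. Pms1, of a MutL complex, differed by 1.78 ± 0.10 (SE, adjusted p = 2.45e-12). Pms2, of the main MutL complex, was higher in cortex, over 2.34 to 5.39 CPM (median 3.55) in liver and 13.9 to 16.3 (median 15.3) in cortex, with -2.12 ± 0.069 (SE, adjusted p = 6.29e-16). Rrm2b, a ribonucleotide reductase subunit, was higher in cortex (log2 -2.28 ± 0.048). Msh3, a mismatch sensor tied to repeat expansion, overlapped at 13.1 to 23.7 CPM (median 18.4) in liver and 11.7 to 16.3 (median 13.7) in cortex, and its difference of 0.43 ± 0.057 changed sign when scaled by library totals.

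The difference between liver and cortex depended on sex for 1903 genes (11.3%), 943 with liver less cortex higher in females (5.59%) and 960 with it higher in males (5.69%). The split moved with the scale, and with library totals only 86.2% of calls were on the female side in place of 49.6%, with 63.4% under upper-quartile factors, and the median of all genes moved from 0.00869 to 0.169. Female and male livers stood apart, with cortices that overlapped, for 522 of the 1903, the reverse held for 2, and no gene was apart in both. Over all genes tested the sexes did not overlap in liver for 691 (4.10%) and in cortex for 25 (0.148%). Without neo-in male 3, 1224 genes had the difference higher in females and 1158 in males.

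Cux2, a known female-specific repressor in liver and an upper-layer factor in cortex, ranged over 14.6 to 105 CPM (mean 48.3 ± 36.4) in female liver (SD, n = 8) and 0.107 to 0.838 CPM (mean 0.387 ± 0.205) in male liver, and in cortex over 62.5 to 102 CPM (mean 81.5 ± 11.3) and 66.2 to 97.2 CPM (mean 83.8 ± 10.7). Its difference by sex was 6.69 ± 0.34 (SE, adjusted p = 6.31e-10) on the log2 scale. Nt5e, the ectonucleotidase CD73, ranged over 60.5 to 104 CPM (mean 85.2 ± 14.2) in female and 5.82 to 14.6 CPM (mean 10.3 ± 3.75) in male liver, with 2.87 ± 0.14 (SE, adjusted p = 5.35e-10). Neither overlapped between the sexes in liver, and both overlapped in cortex. Abcd2, a peroxisomal fatty acid transporter, and Fmo2, a flavin monooxygenase, went the same way, by 2.94 ± 0.17 (SE, adjusted p = 3.20e-09) and 2.52 ± 0.16 (SE, adjusted p = 8.14e-09). On the male side Gstp1, a glutathione transferase, ranged over 183 to 254 CPM (mean 222 ± 23.0) in female and 1312 to 3063 CPM (mean 2265 ± 625) in male liver, with -3.36 ± 0.14 (SE, adjusted p = 2.32e-10). Cyp7b1, the oxysterol hydroxylase, ranged over 31.1 to 64.2 CPM (mean 39.7 ± 10.6) and 268 to 690.1 CPM (mean 485 ± 147), with -3.67 ± 0.18 (SE, adjusted p = 5.94e-10). Susd4, a complement regulator, and F2r, a thrombin receptor, followed with -4.27 ± 0.21 (SE, adjusted p = 5.94e-10) and -1.66 ± 0.10 (SE, adjusted p = 3.27e-09).

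Lists of genes known for sex bias in mouse liver had calls only on the side of their names. Of 15 female-high genes 7 could be tested, 3 were called positive and none negative. Of 14 male-high genes 10 could be tested, 6 were called negative and none positive. Over all genes 5.59% were called positive and 5.69% negative. These lists too were chosen with earlier results of these data known. Cyp2b9, a female P450, ranged over 644 to 862 CPM (median 746) in female and 0.517 to 45.2 CPM (median 1.95) in male liver. Its cortices held 1 count in all, and its difference by sex was not called.

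The difference also depended on the line, for 626 genes (3.71%), 328 positive (neo-out above neo-in, 1.94%) and 298 negative (1.77%). Positive genes were 52.4% of the calls, and 43.5% and 40.9% of them in fits of log2(FPKM + 0.1) and log2(FPKM + 1). Neo-in and neo-out livers stood apart, with overlapping cortices, for 102 of them, cortices alone for 9, both for 4. Over all genes the lines did not overlap in liver for 142 (0.842%) and in cortex for 33 (0.196%). The line is the same as the cohort of animals here, so allele background, cohort and hour of collection, which the labels do not give, cannot be told apart. Without neo-out female 3 the negative genes numbered 185, and without neo-in male 3 there were 467 positive and 423 negative.

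The named line-dependent genes were led by the circadian clock, the transcriptional loop that runs in nearly every cell. Of its 19 listed genes 4 were positive and 11 negative in this contrast, beside 1.94% and 1.77% of all genes. Arntl, the activator BMAL1, ranged over 24.2 to 38.8 CPM (median 28.2) in neo-out liver and 1.72 to 13.9 CPM (median 3.99) in neo-in liver, and over 31.3 to 35.4 CPM (median 33.9) and 24.5 to 29.9 CPM (median 28.2) in cortex, with a difference by line of 2.58 ± 0.24 (SE, adjusted p = 1.06e-05). Npas2, its partner in brain and liver, differed by 4.06 ± 0.32 (SE, adjusted p = 6.18e-06). The repressor Per3 ranged over 1.497 to 9.05 CPM (median 6.78) and 28.3 to 81.3 CPM (median 57.2) in liver, with -3.00 ± 0.27 (SE, adjusted p = 1.03e-05). Dbp, an output factor of the loop, ranged over 0.392 to 9.37 CPM (median 4.75) and 37.3 to 153 CPM (median 83.4) in liver and over 17.5 to 24.6 CPM (median 22.1) and 25.6 to 37.1 CPM (median 32.7) in cortex, with -3.91 ± 0.42 (SE, adjusted p = 4.54e-05). Arntl was thus higher in every neo-out liver, and Per3 and Dbp in every neo-in liver. Arntl and Dbp did not overlap between lines in cortex either, with medians that lay closer together. Outside the list Wee1 and Usp2, both known clock outputs, differed by -2.60 ± 0.24 (SE, adjusted p = 1.33e-05) and -2.84 ± 0.28 (SE, adjusted p = 1.84e-05). Clpx, a mitochondrial chaperone, and Zbtb16, a zinc-finger factor, differed by 1.47 ± 0.14 (SE, adjusted p = 1.84e-05) and 2.30 ± 0.20 (SE, adjusted p = 8.30e-06).

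**Figure D5:**
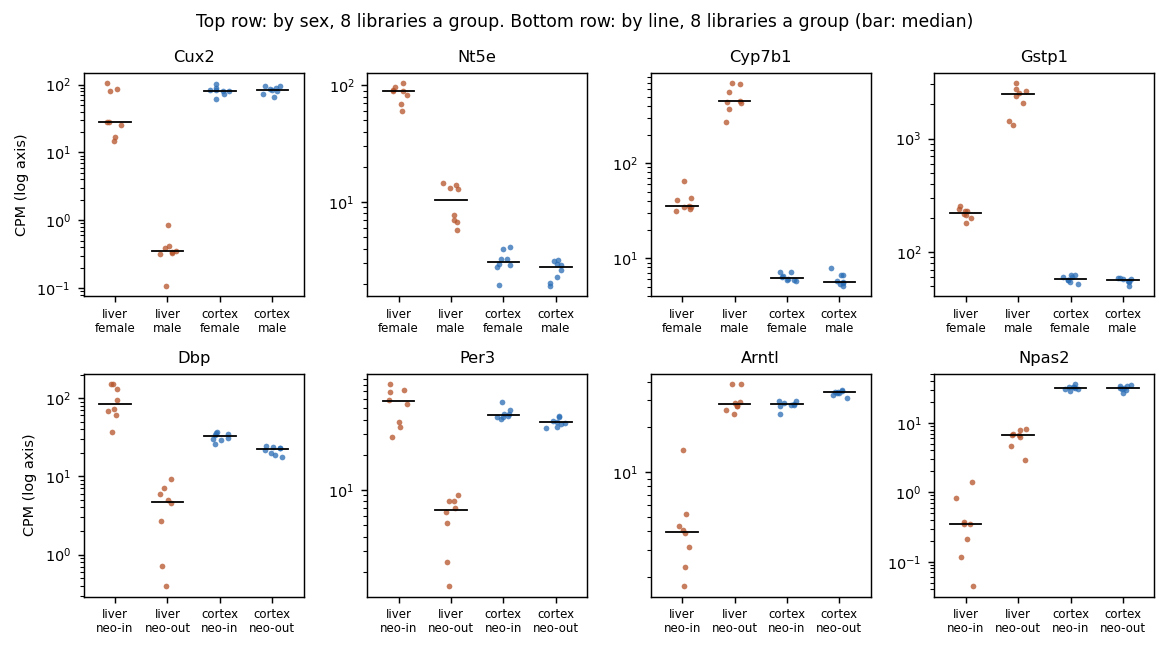
CPM in each library (log axis) of 4 genes by tissue and sex (top) and of 4 clock genes by tissue and line (bottom), 8 libraries a group, with the median as a bar. Cux2 is at 14.6 CPM or more in every female liver and at 0.838 or less in every male liver while the cortices overlap, and Per3 is at 28.3 or more in every neo-in liver and at 9.05 or less in every neo-out liver.

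Clock genes were also read within animals, as deviations from the mean of the same line and sex, so that the gap between lines does not enter. Of 19 genes 14 had a positive correlation between an animal's liver and cortex, and none passed an adjusted p of 0.05 by Pearson's r or by Spearman's rho (permutation test, 100000 draws), with 3 and 5 below 0.05 unadjusted. Dbp had r = 0.618 (permutation p = 0.0101, adjusted 0.0804) and rho = 0.659 (permutation p = 0.0112, adjusted 0.0856), and r = 0.453 without the 2 animals farthest from the median in cortex (permutation p = 0.0404, adjusted 0.183).

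Animals differed more from each other in liver than in cortex. Over 6425 genes at 10 CPM or more in both tissues, the median SD of log2(CPM + 0.5) within line and sex was 0.138 in liver and 0.0901 in cortex, and the liver SD was the larger for 81.6% of genes. Without neo-in male 3 the median liver SD was 0.122 and the share 73.68%. Of the 8 most variable liver genes, 5 were highest by far in that animal. A2m was at 614 CPM there (next 1.10, median of 16 livers 0.0496). Saa2 and Saa1, serum amyloid A proteins of the acute phase, were at 8591 (next 979.9, median 21.3) and 7511 CPM (next 1306, median 53.8). Lcn2, an iron-trapping lipocalin, was at 2902 CPM (next 149, median 19.0), and Saa3 at 248 (next 9.07, median 3.71). The other three were spread over several livers. Mt2 and Mt1, the metallothioneins, ran from 12.4 to 744 CPM (median 97.5) and from 32.1 to 1082 (median 190.1), and Mup15, a major urinary protein, from 24.3 to 3323 CPM (median 379). In cortex the most variable genes were Ttr and 2 predicted genes, then Igf2, from 8.98 to 78.8 CPM, and Myoc, from 1.75 to 17.3, which meninges and vessels are known to express. Ttr (1126 CPM, next 23.7) and Igf2 (78.8, next 51.9) were both highest in neo-out female 1. That cortex library was also high in choroid plexus genes, and its part in the cortex spread was not tested.

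The difference between liver and cortex was then set against that of the 16 Het mice of the same lines, over 64 libraries. It depended on genotype for 73 of 17079 genes (0.427%), 50 positive (Het above wild type, 0.293%) and 23 negative (0.135%), with 1964 at an unadjusted p under 0.05. Positive genes were 68.5% of the calls, 79.2% under RLE factors and 43.0% with library totals only. Abhd1, an alpha/beta hydrolase, ranged over 19.3 to 35.8 CPM (mean 30.4 ± 4.37) in Het and 1.63 to 3.30 CPM (mean 2.45 ± 0.518) in wild-type liver (SD, n = 16) and over 2.89 to 4.35 CPM (mean 3.74 ± 0.442) and 0.808 to 1.53 CPM (mean 1.12 ± 0.216) in cortex, so it was higher in Het mice in both tissues and more so in liver, by 1.90 ± 0.12 (SE, adjusted p = 4.01e-11). Ppp1r1b, the dopamine-signalling protein DARPP-32, ranged over 38.2 to 50.6 CPM (mean 43.3 ± 4.00) in Het and 44.9 to 95.2 CPM (mean 64 ± 13.2) in wild-type cortex and differed by 0.77 ± 0.12 (SE, adjusted p = 0.00172). It is also on the list of striatal neuron markers, whose summed level ran from 161 to 463 CPM (median 187) over the wild-type cortices. The part of striatal tissue in this difference was not tested. Chdh, choline dehydrogenase, and Prox1 were on the negative side, by -0.47 ± 0.073 (SE, adjusted p = 0.0022) and -0.62 ± 0.10 (SE, adjusted p = 0.00365). Single animals weigh heavily on these counts. Positive and negative genes numbered 26 and 13 without Het neo-in female 1, 30 and 13 without Het neo-in female 3, and 25 and 12, 80 and 36, and 32 and 12 without Het neo-in male 2, 3 and 4. They numbered 29 and 12 without Het neo-out female 1, and 25 and 14 without Het neo-out male 3. Positive genes were 32 and 31 without Het neo-out female 2 and 4 and 30 without wild-type neo-out male 1, and negative genes 12 without wild-type neo-in female 3.

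The deposited counts and FPKM together give an implied length for each gene in each library, which describes the transcripts to which the quantifier assigned its reads. The following comparison was chosen after seeing the data. Among 7027 genes with 200 counts or more in every liver and cortex library, the implied lengths of the 16 livers and 16 cortices did not overlap for 1069 (15.2%), 563 of them longer in cortex (8.01%) and 506 in liver (7.2%). Of the 1069, 81 differed by over 1.5-fold (1.15%), 71 longer in cortex (1.01%) and 10 longer in liver (0.142%). With a minimum of 50 counts, 1240 of 9680 genes did not overlap and 110 differed by over 1.5-fold. Igf1, the growth hormone effector, had an implied length of 2092 ± 107 bases in liver (SD, n = 16) and 6358 ± 371 in cortex. Slc1a2, the glutamate transporter, had 5372 ± 534 bases in liver and 11392 ± 25.8 in cortex. Mkln1, which encodes muskelin, stood farthest apart, at 1405 ± 83.0 and 7845 ± 880 bases. In the other direction Mical2, an actin-oxidising enzyme, had 6436 ± 93.0 bases in liver and 2668 ± 159 in cortex, and Tsc22d4, a transcriptional regulator, 2356 ± 297 and 1068 ± 31.98. Transcripts could not be told apart by sequence in these tables.

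The striatum of the same 16 wild-type mice gave a similar number of genes against the same livers, 15737 of 16890 (93.2%), 7275 higher in liver (43.1%) and 8462 in striatum (50.1%). Since both comparisons share the liver libraries, no likeness is drawn from this.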

How the data were processed

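RNA was taken from flash-frozen tissue with the Qiagen miRNeasy kit, per the labels' protocols, and the submitters' processing notes name CASAVA 1.8.2 and mm10. No source used here names the quantifier or its annotation. The deposited tables give, for 39179 Ensembl genes in 95 libraries, expected counts (32.2% of values above 1 are not whole) and, as deposited by the authors, FPKM values. A deposited sheet also gives the count of alignments per library, which was used only as a check of depth. Gene names came from GENCODE M21, which named 37693 of the genes, and unnamed genes held at most 0.276% of a library's counts.

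Expected counts were rounded and fitted in edgeR 4.0.16 (R 4.3.3) with filterByExpr by tissue, TMM scaling, 1 coefficient per animal and 1 liver-less-cortex coefficient per line and sex. The quasi-likelihood test was applied to the mean of those 4 coefficients and to their contrasts by sex and line, and a second fit added the Het animals. The animal code in the labels pairs the tissues, since both libraries come from the same mouse. Genes were called at an adjusted p below 0.05 and counted again at 4-fold. The same code was also run on simulated counts that gave both tissues the cortex means, with a small set of genes changed. That setting lacks the broad difference between these tissues, so it does not test the scale between them. DESeq2 1.42.0, limma 3.58.1 on FPKM, other scalings and filters, each line or sex alone and each animal left out were tried. No pair among 48 within-group pairs of libraries agreed within sampling noise, with a chi-square per gene of 4.65 or more at 10 counts.

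The gene lists, gene pairs and named-gene rule were chosen with earlier results of these data known, and the paired design was chosen likewise. The rule names Htt, the members of each list with the largest and smallest differences (up to 4 in the main direction, 2 in the other and 2 nearest 0), the gene pairs, the 10 most extreme and 10 nearest 0, the 10 highest in FPKM, the 8 most significant per direction for sex, line and genotype, the 8 most variable per tissue and the clock genes. Some members of the lists and pairs, and 1 planned promoter motif, are not reported here. Other list members named in the text were chosen after their values were seen. A count of 0 over a tissue was given a floor of 3 counts over its 16 libraries, which covers counting error only. Reads shared between near-identical family members (cytochrome P450, Mup, Saa, haemoglobin) may be divided with error, and no source used here says whether counting used strand.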

Additional observations from a re-analysis of the deposited data

Results flagged for a closer look

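Among groups of 8 livers or cortices for the genes that depended on sex or line, 11 of 128 groups examined had 1 animal far from the others. The criterion, at a 95% critical value, would by its construction pick about 1 in 20 groups of normal values, and the groups share animals. The animal was the highest in male liver for Cux2 (0.838 CPM, next 0.424) and F2r (77.7, next 63.4), in female liver for Pygo1 (3.20, next 2.42) and Cyp7b1 (64.2, next 42.8), and in female cortex for Fam84b (9.25, next 6.45) and Nat8f5 (1.04, next 0.839). By line it was the highest in neo-in liver for Zbtb16 (14.1 CPM, next 8.54) and Arntl (13.9, next 5.22) and in neo-out liver for Per2 (25.8, next 15.8). It was the lowest in neo-in cortex for Arntl (24.5 CPM, next 27.4) and in neo-in liver for Stim2 (26.6, next 34.4).

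The liver-less-cortex difference differed by sex, line or genotype in the contrast of the edgeR fit for the genes that the naming rule picked. By sex (female less male, log2) it was positive for Cux2 (6.69), Abcd2 (2.94), Nt5e (2.87), Pygo1 (2.61), Fmo2 (2.52), Fam84b (2.39), Chic1 (2.38) and St3gal6 (2.32). It was negative by sex for Nat8f5 (-7.30), Nat8 (-5.16), Susd4 (-4.27), Fmn2 (-4.09), Cyp7b1 (-3.67), Lama3 (-3.57), Gstp1 (-3.36) and F2r (-1.66). By line (neo-out less neo-in, log2) it was positive for Npas2 (4.06), Arntl (2.58), Zbtb16 (2.30), Chka (1.52), Clpx (1.47), Gas7 (1.46), Rnf144a (1.36) and Tars (0.77). It was negative by line for Per3 (-3.00), Usp2 (-2.84), Wee1 (-2.60), A930033H14Rik (-2.18), Per2 (-2.13), Tef (-1.79), 9830144P21Rik (-1.39) and Stim2 (-0.66). By genotype (Het less wild type, log2) it was positive for Abhd1 (1.90), Zbtb16 (0.84), Hfe2 (0.82), Ppp1r1b (0.77), Etnk2 (0.53), Stard8 (0.43), Rock2 (0.34) and Tsnax (0.25). It was negative by genotype for Slc45a3 (-1.02), Prox1 (-0.62), Plpp2 (-0.57), Sgsh (-0.48), Chdh (-0.47), Irgm1 (-0.40), Tmem110 (-0.33) and Pofut1 (-0.25). Line and cohort cannot be told apart, and the hour of collection was not tested.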

How the results depend on the processing

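With no replicate block, that is, without the pairing of liver and cortex by animal, 7369 genes were positive and 8455 negative, 2650 and 4502 of them at 4-fold, and 30 gene lists had a median above 0 as before. By sex 1277 and 1313 genes were then called, by line 450 positive and 470 negative, and by genotype 123 and 71.

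Scaling moved the tissue counts. Genes higher in liver numbered 4236 with library totals, 4274 with limma on log2(FPKM + 0.1) and 4290 on log2(FPKM + 1), and those at 4-fold 1741 and 1285 on these FPKM scales. By sex the positive and negative genes numbered 2901 and 464 with library totals, 3047 and 540 on log2(FPKM + 0.1), 2852 and 567 on log2(FPKM + 1), and 1705 and 556 with totals that leave out the highest genes. With fewer animals they numbered 206 and 224 in the neo-in line and 400 and 362 in the neo-out line. By line the negative genes numbered 454 with DESeq2 and 453 on log2(FPKM + 1), and the positive and negative genes 72 and 59 in females and 92 and 47 in males. By genotype the positive genes numbered 80 with RLE factors and 29 with every gene tested, and the negative 45 with library totals. The cause of these changes was not tested, except that the single-sex and single-line fits hold fewer animals.

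Under library totals, limma on log2(FPKM + 0.1), limma on log2(FPKM + 1) and totals without the highest genes, in that order, the log2 difference turned negative for Eno1 (-0.75, -0.75, -0.75, -0.35), Gapdh (-0.82, -0.94, -0.94, -0.42), Msh3 (-0.54, -0.53, -0.43, -0.14), Pdk4 (-0.59, -0.56, -0.34, -0.19) and Slc4a4 (-0.59, -0.71, -0.68, -0.19). It did so under the first 3 for Myrf (-0.32, -0.31, -0.28) and Reln (-0.29, -0.11, -0.091). Pdk4 was also at -0.10 in males alone and -0.40 in the neo-in line alone. List medians turned negative under the same 4 settings for shared endothelial genes (-0.50, -0.49, -0.44, -0.097), mismatch repair (-0.54, -0.53, -0.43, -0.14) and nuclear receptors (-0.60, -0.61, -0.46, -0.20), and under the first 3 for mitochondrially encoded genes (-0.074 each). These scalings lower liver against cortex for all genes together.

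Leaving out each animal in turn gave 7267 to 7374 positive and 8343 to 8472 negative genes, 2632 to 2680 and 4489 to 4556 at 4-fold, and 29 to 31 lists with a median above 0. By sex the ranges were 717 to 1224 and 741 to 1158, by line 223 to 467 and 185 to 423, and by genotype, with the spread of the full fit, 25 to 80 and 12 to 36. Htt stayed between -1.62 and -1.58. Liver less cortex ranged from -2621 to -2585 genes at 1 FPKM or more, from -733 to -724 genes up to the midpoint of counts, from 8.40 to 8.80 points for the 10 highest genes, from 3.95 to 4.17 for the highest, from -0.966 to -0.720 for mitochondrial genes and from 0.0507 to 0.0661 for ribosomal protein genes. In the neo-out line alone the mitochondrial difference was -0.537 (exact p = 0.25), and in the neo-in line alone the ribosomal difference was 0.0553 (exact p = 0.0781). The share of genes with the larger spread in liver was 80.5% with library totals and, in a fit added after seeing the data, 73.68% without neo-in male 3.

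Among genes at 16-fold in place of 4-fold, promoter shares were 2.90% for HNF4, 0.829% for the cyclic AMP element and 0% for the REST left part on the liver side, and 1.46% and 30.8% for the REST left and right parts on the cortex side. Of the values for named genes, 5877 kept their side of the threshold in the tissue contrast, 18 lost and 58 gained a call. In bulk tissue, depth limits genes with few counts in 1 tissue, whose differences are bounds or rest on single reads.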

Other observations

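Some genes varied between animals alike in all tissues, and they were picked after their values were seen. Ide, insulin-degrading enzyme, was low in both neo-in female 4 (124 CPM in liver, 42.9 in cortex, 37.1 in striatum) and neo-in male 3 (129, 41.9 and 39.5). It was high in neo-out male 4 (352, 85.4 and 85.8). Acer2, a ceramidase, was at 41.7 CPM in liver, 35.0 in cortex and 44.6 in striatum of neo-in male 3. In the other neo-in animals it was at 15.3 to 20.7 CPM in liver. The liver of neo-out male 1 was as high, at 42.3 CPM, and that of neo-out male 4 was at 35.5. In cortex and striatum the next highest animal was neo-out male 1, at 22.6 and 21.9 CPM.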
